A study of Rattus norvegicus with 24 samples.

Results

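Lyn and 6 other Src family kinases, Fyn, Src, Yes1, Fgr, Lck and Blk, were described in rat cerebellum. Members were rows of the annotated expression table that carried 1 of these 7 symbols, and each of the 7 had 1 row, so they made up 7 of 18137 genes measured under 1 symbol. Lyn was chosen by its own measured values, since it was 1 of 3 genes past the threshold for ammonia in these arrays (all 3 lower), and the other members were taken as its family. All ammonia values of the 7 members are therefore given as a description, with no test.

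The 24 Affymetrix arrays came from cerebellum of Sprague-Dawley rats. Shunted rats serve to study hepatic encephalopathy, in which a failing or bypassed liver disturbs the brain. The Sham group had control surgery (5 arrays), and the PCA group had portocaval anastomosis, which leads portal blood past the liver (5 arrays). The PCA+NH3 group had the shunt and ammonia (ammonium acetate) infusions (5 arrays), the PCA+LPS group had the shunt and infusions of lipopolysaccharide, part of the bacterial outer membrane and a trigger of innate immune cells (5 arrays), and the PCA+NH3+LPS group had the shunt and both (4 arrays). Tissue was taken 6 months after the shunt. The infused rats received 10 infusions, 1 every 2 weeks, with ammonia given at 20 µl/min for 3 h and LPS at 5 mg/kg. The shunt was thus shared by all 4 groups other than Sham. The labels do not say whether the numbered samples of a group came from separate animals, so each p-value measures only the spread between these samples. The sources used here do not say whether Sham and PCA rats were given vehicle.

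Src family kinases are tyrosine kinases anchored to the inner face of the plasma membrane by a fatty acid at their N-terminus. Phosphorylation of a tyrosine in the C-terminal tail by Csk holds them closed, and removal of that phosphate, by Ptprc (CD45) in blood cells, allows them to open. Lyn and Fgr are prominent in myeloid cells, which include microglia in the brain, and Lyn also works in B cells and mast cells, where it phosphorylates both activating and inhibitory receptors. Lck is the kinase that starts T-cell receptor signalling, and Blk is best known in B cells. Fyn, Src and Yes1 are made in most tissues. In brain, Fyn and Src phosphorylate NMDA receptor subunits, and Fyn takes part in myelination.

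Values are log2 levels from the array, deposited in steps of 0.1. A difference of 1 is therefore a doubling, and a level is comparable between arrays for 1 gene but not between genes. The granule cell marker Gabra6 lay between 11.8 and 12.4 and the Purkinje cell marker Pcp2 between 10.3 and 10.7 on all 24 arrays. A marker list is summarised per array as the mean of its genes after each gene's mean over the 24 arrays was subtracted. On that scale the 10 measured choroid plexus markers stood between 1.28 and 3.20 on 4 arrays, PCA+NH3 arrays 1, 2 and 5 and PCA+NH3+LPS array 3, and between -0.98 and 0.49 on the other 20. The 8 neutrophil markers stood at 0.92 and 0.61 on PCA+LPS arrays 2 and 5 and between -0.19 and 0.10 on the other 22. Oligodendrocyte markers reached 1.15 on Sham array 1. For Lyn, Fgr and some of the other genes, values are also given without some of these arrays. The counts over marker and partner lists use all 24 arrays.

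Lyn was lower on the arrays with ammonia than on those without it, and its level was highest in the PCA+LPS group. In Sham it measured 6.8, 6.7, 7.0, 6.8 and 7.2 on the 5 arrays (mean 6.90 ± 0.20, SD, n = 5). In PCA it measured 7.1, 6.8, 7.1, 7.1 and 7.2 (7.06 ± 0.15, n = 5). In PCA+NH3 it measured 6.6, 6.7, 6.9, 6.8 and 6.5 (6.70 ± 0.16, n = 5). Of the PCA+NH3 arrays, 3 lay below every PCA array, and the highest PCA+NH3 array was above the lowest PCA array, so that these groups overlapped. In PCA+LPS Lyn measured 7.5, 7.4, 7.2, 7.2 and 7.5 (7.36 ± 0.15, n = 5). In PCA+NH3+LPS it measured 6.8, 6.9, 7.0 and 6.9 (6.90 ± 0.08, n = 4). The PCA+LPS arrays all lay above every array with ammonia, whether or not LPS was given with it. The share of all genes that separate in this way was not counted. These groups entered the contrast that chose Lyn, so nothing is read from the separation.

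Ordered by mean, the groups ran from PCA+LPS through PCA, then Sham and PCA+NH3+LPS at the same mean, to PCA+NH3. Each group shared values with its neighbour in that order. PCA+LPS and PCA shared the value 7.2, and PCA+NH3+LPS lay wholly within the range of Sham. The combination of ammonia and LPS thus stood at the Sham mean, 0.46 below LPS alone and 0.20 above ammonia alone.

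Over both backgrounds, the ammonia difference of Lyn (the mean of the PCA+NH3 and PCA+NH3+LPS groups minus the mean of the PCA and PCA+LPS groups) was -0.41, a fold of 0.753. It was -0.36 without LPS and -0.46 with LPS. The 10 shunted arrays without ammonia averaged 7.21, and each of the 9 with ammonia was lower than that. Every PCA+NH3+LPS array lay below every PCA+LPS array, which 0.402% of all genes also showed. Over all genes, 0.0165% passed the threshold for this contrast (limma, adjusted p under 0.05) and 5.57% had an unadjusted p under 0.05. Because this contrast chose Lyn, nothing is read from these shares. Lyn was the last of the 3 genes inside the threshold, after the clock gene Per2 at -0.94 and Dusp4, a phosphatase of MAP kinases, at -0.70. The genes just outside it were Iqub at 0.29, Sstr2, a somatostatin receptor, at -0.40 and Spred1, a brake on Ras signalling, at -0.29.

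**Figure D1:**
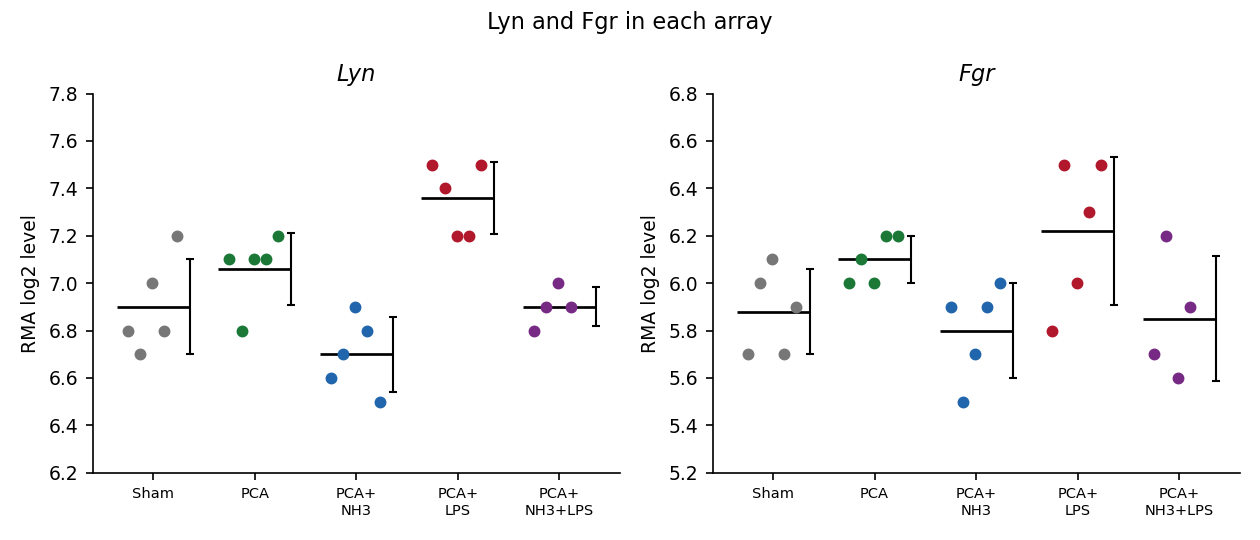
Log2 level of Lyn and Fgr on each of the 24 arrays (points), by group, with the mean and SD. For Lyn, all 5 PCA+LPS arrays (7.2 to 7.5) sit above all 9 arrays with ammonia (6.5 to 7.0), while the Fgr groups overlap. These groups entered the contrast that chose Lyn, and the share of all genes that separate this way was not counted.

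The LPS comparison is a separate contrast from the one that chose Lyn, so it could be tested. Lyn was 0.25 higher with LPS, averaged over the groups with and without ammonia (SE 0.07, 95% interval 0.10 to 0.40, fold 1.19), but did not pass over all genes (limma adjusted p = 0.997, unadjusted p = 0.0019). Of 9 LPS arrays, 8 lay above 6.88, the mean of the 10 shunted arrays without LPS. The background of this contrast was 0.0165% of genes at the adjusted threshold, or 3 genes, and 3.09% at an unadjusted p under 0.05. Lyn ranked 26th of the 18137 genes by p. Compared with PCA alone, PCA+LPS was 0.30 higher (SE 0.10, 95% interval 0.097 to 0.50, limma adjusted p = 0.988), in a contrast where 0% of genes passed over all genes and 4.01% had an unadjusted p under 0.05. The interaction, which asks whether the ammonia difference was larger or smaller with LPS, was -0.10 for Lyn (SE 0.14, 95% interval -0.40 to 0.20, limma adjusted p = 0.997). For the interaction 0% of genes passed and 3.72% had an unadjusted p under 0.05.

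The shunt by itself gave smaller values for Lyn. PCA was 0.16 above Sham (SE 0.10, limma adjusted p = 0.987), with 0% of genes past the threshold and 3.59% at an unadjusted p under 0.05. The PCA arrays were also among those of the contrast that chose Lyn. The 4 shunted groups together were 0.11 above Sham (SE 0.08, 95% interval -0.056 to 0.27, limma adjusted p = 0.887). The background here was 0.00551% at the adjusted threshold, which is 1 gene, and 5.94% at an unadjusted p under 0.05. Without Sham arrays 1 and 2 the shunt difference of Lyn was 0.005.

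Fgr, the myeloid member nearest to Lyn in its ammonia value, was also lower on the ammonia arrays. It measured 5.7, 6.0, 6.1, 5.7 and 5.9 in Sham (5.88 ± 0.18, n = 5). It measured 6.0, 6.1, 6.0, 6.2 and 6.2 in PCA (6.10 ± 0.10, n = 5). It measured 5.9, 5.5, 5.7, 5.9 and 6.0 in PCA+NH3 (5.80 ± 0.20, n = 5). Of the PCA+NH3 arrays, 4 lay below every PCA array, and the remaining one equalled the lowest. In PCA+LPS Fgr measured 5.8, 6.5, 6.0, 6.3 and 6.5 (6.22 ± 0.31, n = 5). In PCA+NH3+LPS it measured 5.7, 6.2, 5.6 and 5.9 (5.85 ± 0.26, n = 4). These last groups overlapped, and the PCA+LPS arrays were the most spread of the 5 groups.

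The ammonia difference of Fgr was -0.34, with -0.30 without LPS and -0.37 with LPS, and 8 of 9 ammonia arrays were under 6.16, which the shunted arrays without ammonia averaged. Its LPS difference was 0.085 (SE 0.096, 95% interval -0.11 to 0.28, limma adjusted p = 0.997). The shunted groups together were 0.11 above Sham (SE 0.11, limma adjusted p = 0.911), and PCA alone was 0.22 above it (SE 0.13, limma adjusted p = 0.987).

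Fgr was highest on PCA+LPS arrays 2 and 5, at 6.5 on both, and reached at most 6.3 on the other 22 arrays. PCA+LPS arrays 2 and 5 were those with a high mean of the 8 neutrophil markers. S100a9, a calcium-binding protein of neutrophils, measured 7.0 and 6.0 there and at most 4.6 elsewhere. Mmp8, the neutrophil collagenase, measured 5.7 and 5.2 against at most 3.8, and Csf3r, the receptor for granulocyte colony-stimulating factor, 7.3 and 7.1 against at most 6.0. Not every marker of the list stood out on these arrays. Mpo measured 4.7 on both, within its range of 4.4 to 4.9 over the 24 arrays. Elane measured 4.6 and 4.8 (range 4.1 to 4.8) and S100a8 3.6 and 3.1 (range 2.7 to 3.6). For PCA+LPS against PCA, Camp was at -0.06 and Ngp at 0.16. Without these arrays the LPS difference of Fgr was -0.0083, and its PCA+LPS minus PCA difference was -0.067. Lyn measured 7.4 and 7.5 on these arrays, within the range of 6.5 to 7.5 of the others, and its LPS difference without them was 0.22 (SE 0.08, limma adjusted p = 1). The ammonia difference without them was -0.38 for Lyn and -0.24 for Fgr. The same arrays held the highest means of the perivascular macrophage list among the 24 arrays, 0.52 and 0.46, with 0.42 on PCA+NH3+LPS array 2 next. Over the 24 arrays, Fgr had r = 0.69 with the neutrophil mean and 0.65 with the perivascular macrophage mean. After group means were subtracted, these were 0.64 and 0.59. Both stood highest among the 14 marker lists. The T-cell list gave 0.52 (0.52 after subtraction), B-cell 0.41 (0.37), meningeal fibroblast 0.36 (0.47) and microglial 0.21 (-0.10). The astrocyte (-0.45), choroid plexus (-0.37) and oligodendrocyte (-0.36) lists were negative over the 24 arrays. These coefficients describe arrays that share their normalization. The part of any of these cell types in the Fgr values was not tested.

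**Figure D2:**
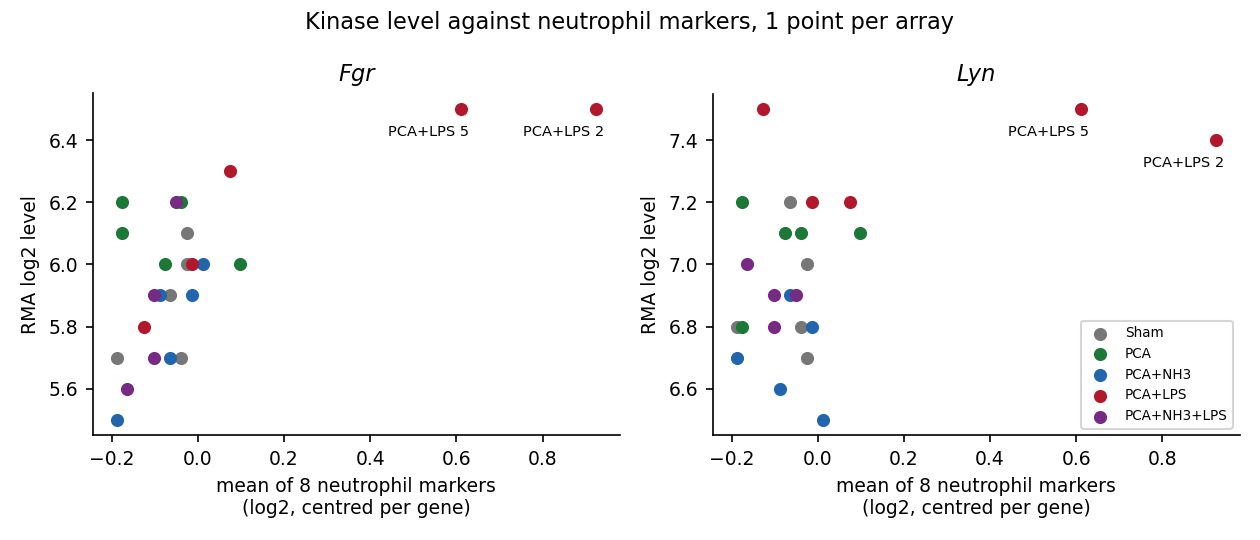
Log2 levels of Fgr and Lyn (vertical axes) against the mean of the 8 neutrophil markers on each array, centred per gene in log2 units (horizontal axis), coloured by group. PCA+LPS arrays 2 and 5 stand at 0.92 and 0.61 on the horizontal axis and hold the highest Fgr values, while Lyn reaches 7.5 also on an array without high markers.

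For the microglial list, 17 of 18 markers had a negative ammonia difference, with a median of -0.17 (median over all genes -0.005, with 52.6% of genes negative), and 2 of the 18 had an unadjusted p under 0.05, against 5.57% of all genes. The mean of the list ran from -0.44 to 0.44 over the Sham arrays, from -0.084 to 0.43 in PCA, from -0.30 to 0.12 in PCA+NH3, from -0.20 to 0.43 in PCA+LPS and from -0.16 to 0.089 in PCA+NH3+LPS. These ranges overlapped in every pair of groups. No marker of the list was at 0, and all 18 were measured. For the perivascular macrophage list, all 5 measured markers had a negative ammonia difference, with a median of -0.18. In bulk tissue, fewer cells of a type and less RNA per cell cannot be told apart, and the part of microglia in the Lyn and Fgr values was not tested.

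The arrays with choroid plexus markers, on the other hand, were all ammonia arrays. In PCA+NH3, Lyn measured 6.6, 6.7 and 6.5 on the 3 arrays with these markers and 6.9 and 6.8 on the others. The 3 arrays with the markers were those that lay below every PCA array, and the others lay within the PCA range of 6.8 to 7.2. In PCA+NH3+LPS, the array with the markers held the highest Lyn value of its group, 7.0. Without the 4 arrays with high markers the ammonia difference was -0.35 for Lyn and -0.29 for Fgr. For Lyn, PCA+NH3 then averaged 6.85 (n = 2) against 7.06 in PCA, and PCA+NH3+LPS 6.87 (n = 3) against 7.36 in PCA+LPS. The part of choroid plexus tissue in these values was not tested. The LPS difference of Lyn was then 0.16 (SE 0.09, limma adjusted p = 0.999).

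For Lck and Blk, the kinases of lymphocytes, no difference passed over all genes. Lck measured 4.6, 4.7, 4.5, 4.2 and 4.3 in Sham and 4.6, 4.7, 4.5, 4.6 and 4.2 in PCA. It measured 4.3, 4.5, 4.7, 4.9 and 4.8 in PCA+NH3. It measured 4.5, 4.9, 4.8, 4.7 and 4.7 in PCA+LPS and 4.2, 4.8, 4.3 and 4.4 in PCA+NH3+LPS. All 5 groups of Lck overlapped. Its ammonia difference was 0.12 without LPS and -0.30 with LPS, so that the interaction was -0.42 (SE 0.19, 95% interval -0.80 to -0.032, unadjusted p = 0.035, limma adjusted p = 0.997). Its LPS difference was -0.0075 (SE 0.09) and its shunt difference over the 4 groups 0.12 (SE 0.10).

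Blk measured 4.7, 4.7, 4.6, 4.8 and 4.6 in Sham, and 5.1, 4.7, 5.1, 4.9 and 4.7 in PCA. It measured 4.8, 4.8, 4.9, 5.0 and 4.6 in PCA+NH3. In PCA+LPS it measured 4.7 on 4 arrays and 4.9 on 1, and in PCA+NH3+LPS 4.6 on 3 arrays and 4.9 on 1. The 3 highest PCA arrays of Blk lay above all Sham arrays, and the groups overlapped at 4.7. PCA was 0.22 above Sham (SE 0.09, 95% interval 0.034 to 0.41, unadjusted p = 0.022, limma adjusted p = 0.987), and the LPS difference was -0.15 (SE 0.07, 95% interval -0.29 to -0.017, unadjusted p = 0.029, limma adjusted p = 0.997). Its ammonia difference was -0.073. The list of 6 B-cell markers had group means between -0.024 and 0.022 and the list of 7 T-cell markers between -0.054 and 0.046. No marker was at 0, and the part of these cells in the Lck and Blk values was not tested.

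**Figure D3:**
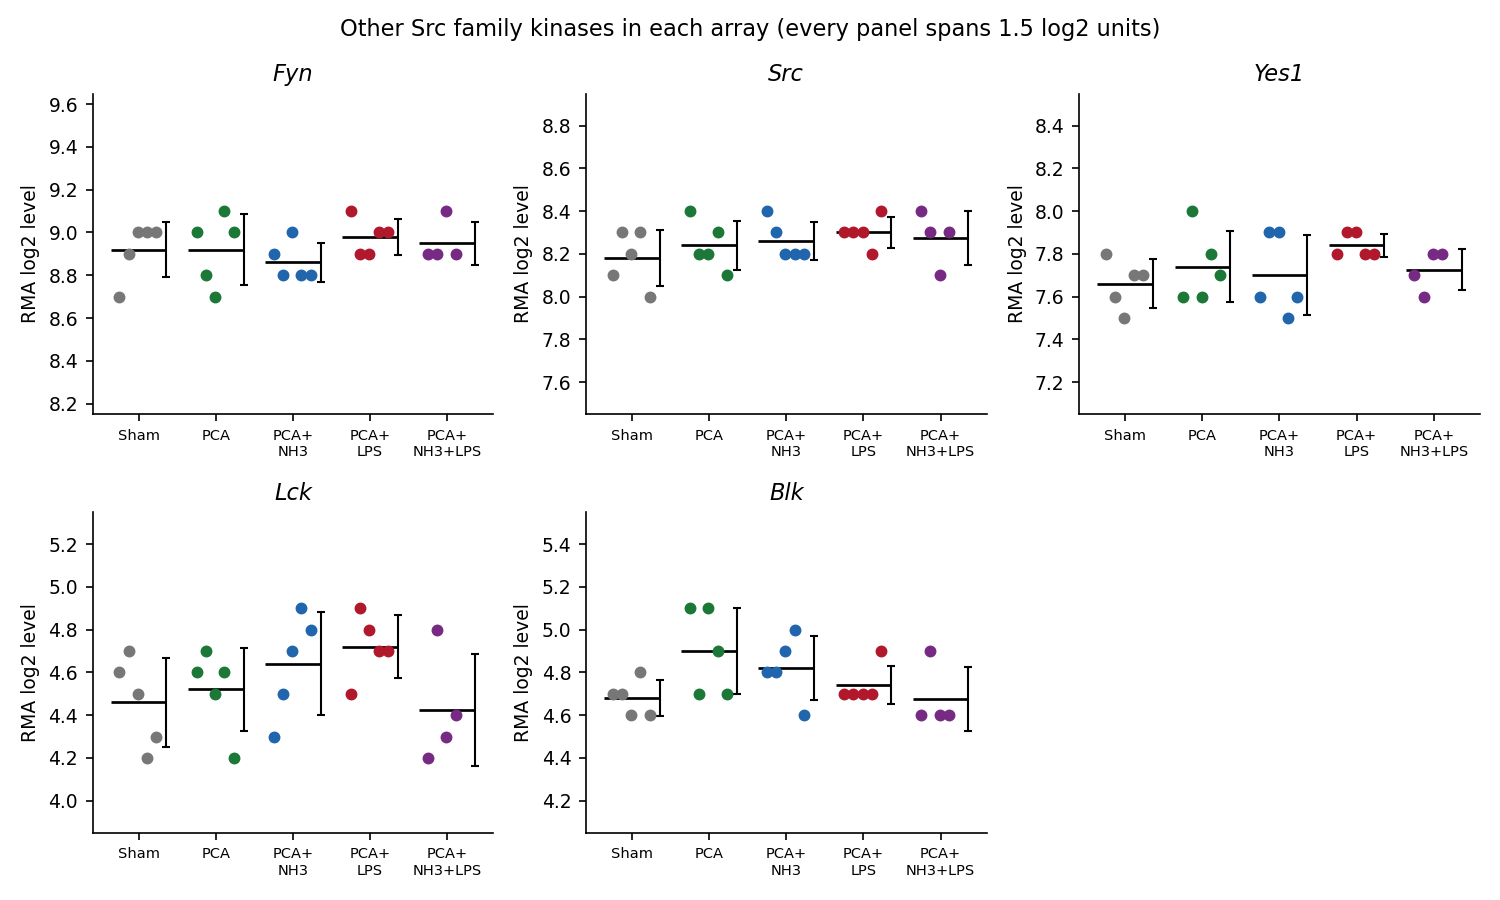
Log2 level of Fyn, Src, Yes1, Lck and Blk on each of the 24 arrays (points), by group, with the mean and SD. The groups overlap in every panel, and each panel spans 1.5 log2 units.

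Fyn, Src and Yes1, the members made in most tissues, varied little. Fyn lay between 8.7 and 9.1 on all 24 arrays, with group means of 8.92 in Sham, 8.92 in PCA, 8.86 in PCA+NH3, 8.98 in PCA+LPS and 8.95 in PCA+NH3+LPS. Src lay between 8.0 and 8.4, with group means of 8.18, 8.24, 8.26, 8.30 and 8.28 in the same order. Yes1 lay between 7.5 and 8.0, with group means of 7.66, 7.74, 7.70, 7.84 and 7.73. The within-group SD was 0.12 for Fyn, 0.11 for Src and 0.13 for Yes1, against a median of 0.16 over all genes, and it was 0.16 for Lyn, 0.22 for Fgr, 0.21 for Lck and 0.14 for Blk. The ammonia difference was -0.045 for Fyn, -0.0025 for Src and -0.078 for Yes1. The LPS difference was 0.075 for Fyn (SE 0.06, 95% interval -0.044 to 0.19), 0.038 for Src (SE 0.05, 95% interval -0.073 to 0.15) and 0.063 for Yes1 (SE 0.06, 95% interval -0.068 to 0.19), each at a limma adjusted p of 0.997. These intervals exclude an LPS shift of 0.25, the value of Lyn, for all 3 genes. That the shift of Lyn differs from theirs was not tested.

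Across the 7 members, all 7 ammonia differences were negative, with a median of -0.078 (median over all genes -0.005), a count that the choice of Lyn entered. For LPS, 5 of 7 were positive, with a median of 0.063 (0.0025 over all genes, with 51.1% of them positive), and 0 passed over all genes by limma while 2, Lyn and Blk, had an unadjusted p under 0.05 in opposite directions, against 3.09% of all genes. For the shunt, all 7 were positive, with a median of 0.10 (-0.0025 over all genes, with 48.8% of them positive), and 0 passed over all genes by limma while 0 had an unadjusted p under 0.05, against 5.94% of all genes. For the interaction, 5 of 7 were negative, as were 47.6% of all genes, and 1, Lck, had an unadjusted p under 0.05, against 3.72% of all genes.

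**Figure D4:**
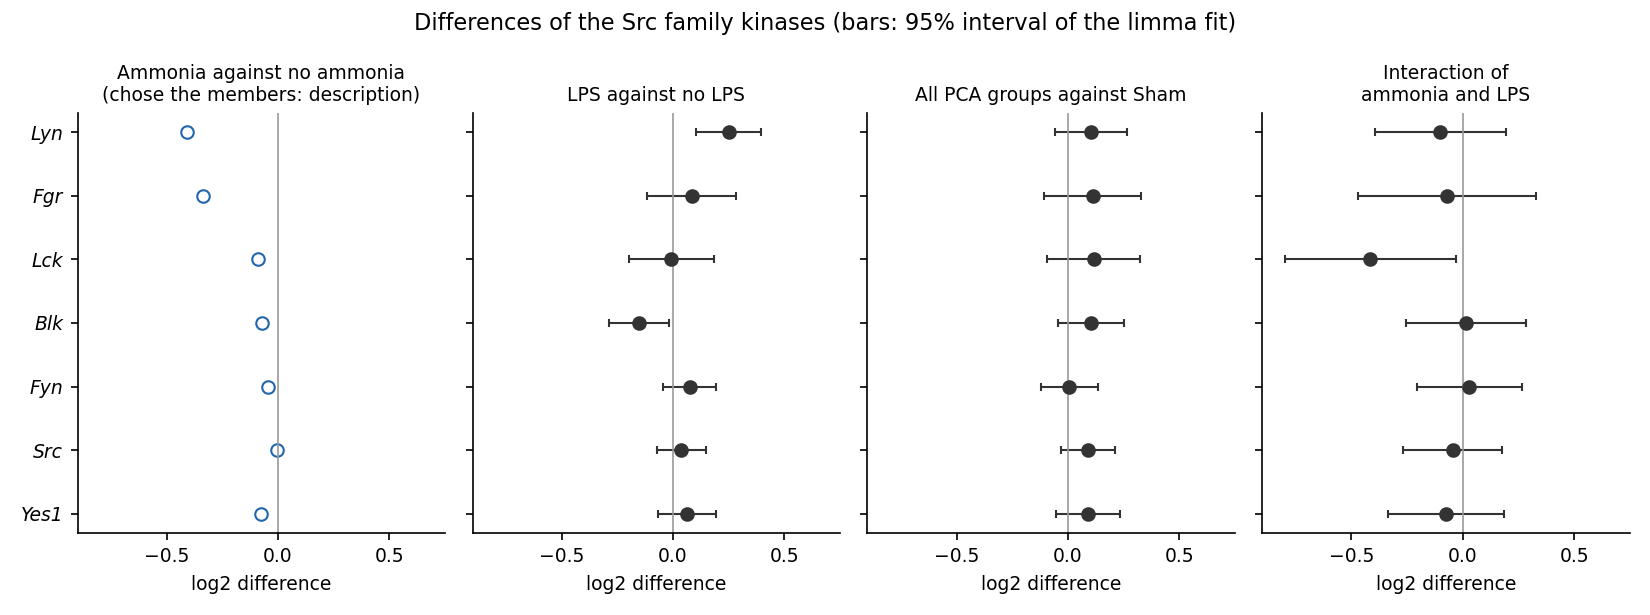
Log2 differences of the 7 Src family kinases for ammonia, LPS, all shunted groups against Sham, and the interaction (horizontal axes), with 95% intervals from limma. The ammonia panel has open symbols and no interval because that contrast chose Lyn; Lyn (-0.41) and Fgr (-0.34) stand furthest from 0 there.

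The promoters of Fgr, the myeloid member with the ammonia value nearest to Lyn, and of Fyn, a broadly expressed one, are shown. RefSeq promoter windows on the GRCr8 build, from 250 bases before to 50 after the start of transcription, were found for 5 of the 7 members, Fyn, Src, Yes1, Fgr and Lck. Capitals mark AGGAAG or CGGAAG on either strand, the purine-rich cores read by ETS family factors, which include the myeloid factor PU.1. The windows are chr5:150473547-150473846 on the + strand for Fgr and chr20:44322414-44322713 on the + strand for Fyn.
Fgr: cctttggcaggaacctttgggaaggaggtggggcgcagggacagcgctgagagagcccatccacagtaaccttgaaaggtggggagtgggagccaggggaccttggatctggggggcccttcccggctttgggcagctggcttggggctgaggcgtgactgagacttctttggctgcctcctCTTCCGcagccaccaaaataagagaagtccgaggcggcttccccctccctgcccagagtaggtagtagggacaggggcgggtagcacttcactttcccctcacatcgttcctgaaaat
Fyn: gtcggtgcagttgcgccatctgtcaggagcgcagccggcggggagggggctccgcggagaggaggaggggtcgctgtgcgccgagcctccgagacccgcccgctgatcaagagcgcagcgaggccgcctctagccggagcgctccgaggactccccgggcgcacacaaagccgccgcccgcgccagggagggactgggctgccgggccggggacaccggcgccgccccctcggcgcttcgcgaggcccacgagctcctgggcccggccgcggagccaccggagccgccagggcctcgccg
The Fgr window held 1 CGGAAG, read on the opposite strand, 9 CpG dinucleotides and 60.67% G and C. The Fyn window held neither motif, 42 CpG dinucleotides and 78% G and C. Of 33469 RefSeq rat promoter windows of this length, 34.51% held AGGAAG, 16.62% held CGGAAG and 45.54% held either, and the medians were 7 CpG dinucleotides and 51.67% G and C. Both windows lay above those medians. Of the other members, the Yes1 window also held 1 CGGAAG, the Src window held neither motif, and the 2 Lck windows held 2 and 1 AGGAAG. The Src window, from chr3:166544438, lay inside the gene, which starts at 166511616. Fgr was the only myeloid member with a window, and Lyn had none. The motifs can therefore not be compared between the myeloid and the broadly expressed members. The 2 motifs share the letters GGAAG, and a match describes the sequence only.

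Among genes that work with the family, Cd4 had the smallest p, for LPS. Cd4, the coreceptor that brings Lck to the T-cell receptor and which rat macrophages and microglia also carry, averaged 7.10 in Sham, 7.10 in PCA, 6.92 in PCA+NH3, 7.88 in PCA+LPS and 7.63 in PCA+NH3+LPS. Cd4 had 2 probe sets, the values are those of the one with the higher mean, and the other was not described. The LPS difference of Cd4 was 0.74 (SE 0.14) and did not pass over all genes (limma adjusted p = 0.129). The adjusted p was 0.0157 with array weights and 0.591 without PCA+LPS arrays 2 and 5.

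Beside the LPS values of Lyn and Cd4, 1 macrophage marker passed. Adgre1 (F4/80), a surface receptor of macrophages and microglia, averaged 5.80 ± 0.19 in Sham, 6.06 ± 0.24 in PCA, 5.92 ± 0.26 in PCA+NH3, 6.86 ± 0.42 in PCA+LPS (n = 5 each) and 6.68 ± 0.32 in PCA+NH3+LPS (n = 4). It was 1 of the 3 genes past the threshold for LPS, at 0.78 (SE 0.13, limma adjusted p = 0.0237). The difference was 0.66 without PCA+LPS arrays 2 and 5 (limma adjusted p = 0.178) and 0.84 without the choroid plexus arrays (limma adjusted p = 0.259), and neither passed. It also missed the threshold, at limma adjusted p between 0.0553 and 0.113, when any 1 of PCA arrays 1, 2 and 4, PCA+NH3 arrays 2, 3 and 4, PCA+LPS arrays 1 and 2, or PCA+NH3+LPS arrays 2, 3 and 4 was left out. The other markers of the perivascular macrophage list, to which Adgre1 belongs, did not pass. With Adgre1 included, 4 of the 5 measured markers were positive for LPS, with a median of 0.035 (0.0025 over all genes, with 51.1% of them positive). Of the 18 microglial markers, 15 were positive for LPS with a median of 0.07, against the same values over all genes. By limma 0 passed and 0 had an unadjusted p under 0.05, against 3.09% of all genes. The part of these cells in the Lyn and Cd4 values was not tested.

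Of the 7 T-cell markers, 0 passed for LPS by limma and 0 had an unadjusted p under 0.05, with a median of 0.063. Of the 16 lymphocyte partners, all were measured, and 0 passed over all genes by limma in any of the 6 contrasts. For ammonia, 10 were negative, with a median of -0.021 (-0.005 over all genes, with 52.6% of them negative). By limma, 2 of the 16 had an unadjusted p under 0.05, against 5.57% of all genes. They were Cd22, an inhibitory receptor phosphorylated by Lyn in B cells, at -0.28 (SE 0.10), and Cd3e, a chain of the T-cell receptor complex, at -0.14 (SE 0.06). Both had low levels, at percentiles 15.6 (Cd22) and 19.2 (Cd3e) of the mean among all genes. Cd22 ran from 3.5 to 4.5 over the PCA+LPS arrays.

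Of 26 listed myeloid partners, 22 were measured, and 0 passed over all genes by limma in the 6 contrasts. For ammonia, 18 of the 22 were negative, with a median of -0.10 (-0.005 over all genes, with 52.6% of them negative). By limma, 2 had an unadjusted p under 0.05, against 5.57% of all genes. Tyrobp and Csf1r also belong to the microglial list and Csf3r to the neutrophil list, so these counts are not separate. Csf3r was at -0.48 (SE 0.17, limma adjusted p = 0.757), Dok3, an inhibitory adaptor of immune receptors, at -0.21 (SE 0.09, limma adjusted p = 0.885), and Tyrobp, the adaptor of Trem2 and a target of Src family kinases, at -0.30 (SE 0.16, limma adjusted p = 0.912). The Csf3r value was -0.19 without PCA+LPS arrays 2 and 5. For LPS, 15 of the 22 were positive, 6 negative and 1 at exactly 0, with a median of 0.056 (0.0025 over all genes, with 51.1% of them positive). Hcls1, a Lyn substrate of the blood cell cytoskeleton, was at 0.29 (SE 0.09, unadjusted p = 0.0052), Csf2rb, the shared receptor chain for GM-CSF, at 0.44 (SE 0.19, unadjusted p = 0.031), and Csf3r at 0.36 (SE 0.17, unadjusted p = 0.0498), each at a limma adjusted p of 0.997. Without PCA+LPS arrays 2 and 5, Csf2rb was at 0.10, Csf3r at 0.067 and Hcls1 at 0.25. For the shunt, 17 of the 22 were positive, with a median of 0.098 (-0.0025 over all genes, with 48.8% of them positive). Cd14, the LPS coreceptor, was at 0.28 (SE 0.09, limma adjusted p = 0.641), with a mean of 5.66 in Sham and 5.88 to 5.98 in the shunted groups.

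Of 16 listed regulators of the family, 15 were measured. For ammonia, 9 had a negative and 6 a positive difference, with a median of -0.015 (-0.005 over all genes, with 52.6% of them negative). Over all genes, 0 passed by limma in the 6 contrasts. Ptpre, a receptor phosphatase that can activate Src family kinases, was at 0.20 for ammonia (SE 0.06, unadjusted p = 0.0047, limma adjusted p = 0.616), with means of 7.46 in Sham, 7.22 in PCA, 7.42 in PCA+NH3, 7.32 in PCA+LPS and 7.53 in PCA+NH3+LPS. Nmt2, a transferase of the N-terminal fatty acid, was at 0.22 (SE 0.09, limma adjusted p = 0.853). Csk, the inhibitory kinase, was at -0.043 for ammonia, -0.023 for LPS and -0.091 for the shunt. Ptprc was 0.47 above Sham over the shunted groups (SE 0.19, unadjusted p = 0.019, limma adjusted p = 0.798), and its LPS difference turned from 0.22 to -0.045 without PCA+LPS arrays 2 and 5.

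The 20 substrates and partners in neurons and glia were all measured, 0 passed over all genes by limma in the 6 contrasts, and their ammonia differences split into 10 negative and 10 positive with a median of 0.005. Prnp, the prion protein, whose signal runs through Fyn, was at 0.17 for ammonia (SE 0.06, limma adjusted p = 0.836). Grin2b, the NMDA receptor subunit phosphorylated by Fyn, was at -0.24 for the shunt (SE 0.12, limma adjusted p = 0.840).

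**Figure D5:**
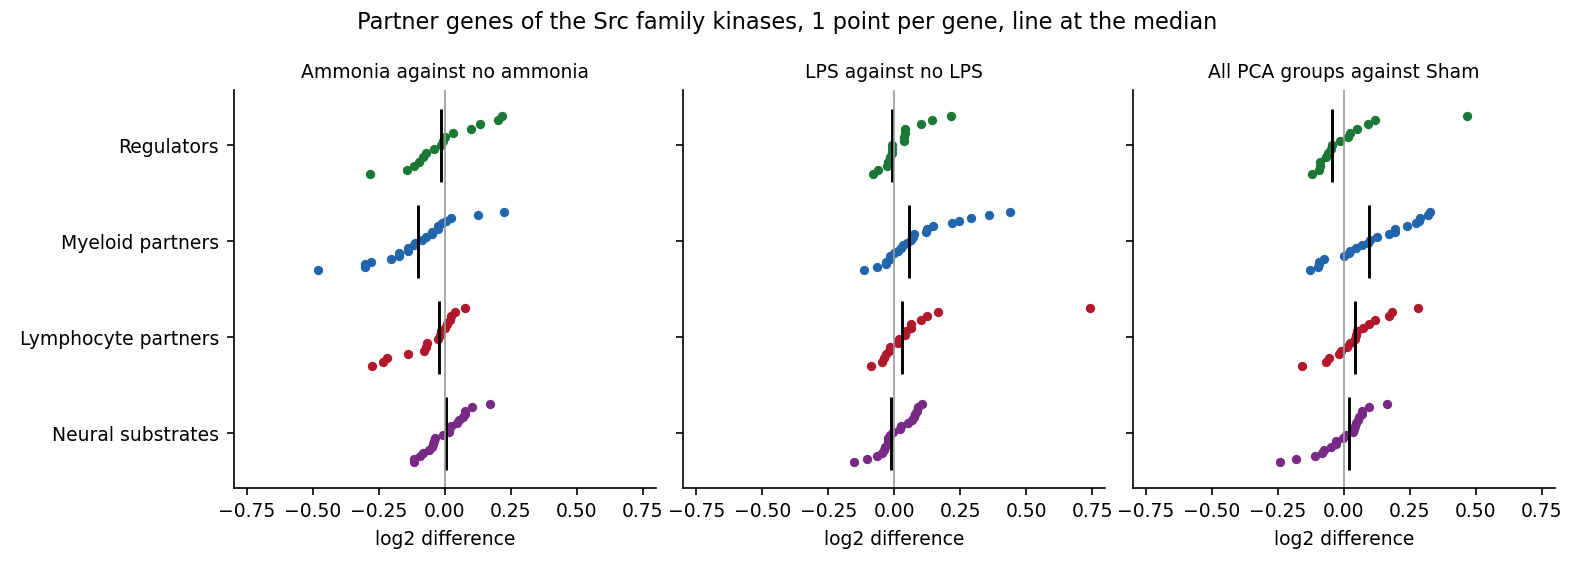
Log2 differences of the partner genes of the family, 1 point per gene, for ammonia, LPS and all shunted groups against Sham, with a line at each list's median. Of the 22 myeloid partners, 18 lie below 0 for ammonia, as do 52.6% of all genes, while the 20 neural substrates split evenly. Cd4 stands at 0.74 for LPS.

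Among 8583 genes whose mean was at least the median, those whose level followed Lyn most closely over the 24 arrays were Msl1 (Pearson r = 0.77), Tnfsf13 (0.73), Prr5 (0.73), Hspa4 (0.69), Dclre1a (0.65) and Vasp (0.64). Those that ran most against it were Lyrm9 (-0.69), Mbd3 (-0.67) and Psmd9 (-0.66). After group means were subtracted, Hp1bp3 (0.74), Nhlrc3 (0.71), Tnfsf13 (0.69), Msl1 (0.68), Cdc42 (0.63) and Fam168a (0.63) came first, so Msl1 and Tnfsf13 stood in both. Tnfsf13, a ligand for receptors on B cells, averaged 8.60 in Sham, 8.88 in PCA, 8.70 in PCA+NH3, 9.16 in PCA+LPS and 8.88 in PCA+NH3+LPS. The points share arrays and normalization, the genes were picked from many, and the coefficients are a description. Between Lyn and Fgr, r was 0.52 over the 24 arrays and -0.0092 after group means were subtracted.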

How the data were processed

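The authors deposited log2 expression values made with RMA (which corrects background, quantile-normalizes arrays and summarises each probe set), per the submitters' processing notes. The sources used here name no RMA version, annotation build or batch. All deposited values were multiples of 0.1 between 1.5 and 13.5, so rounding contributes an SD of 0.029. Both deposited tables, annotated and series matrix, held identical values. Of 29016 probe sets, 19338 carried 1 symbol, 1521 several and 8157 none. Symbols were updated through the rat RefSeq table (14126 current, 3388 updated, 1824 kept), and the probe set of highest mean stood for each of 18137 genes.

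All 24 arrays entered 1 fit of group means with limma 3.58.1 in R 4.3.3, without covariates (19 residual and 4.39 prior degrees of freedom). P-values were two-sided and adjusted over all genes by Benjamini-Hochberg, with a threshold of 0.05; intervals are at 95%. The number of arrays limits the precision, with a median SE of 0.072 for the ammonia and LPS contrasts, 0.079 for all shunted groups against Sham, 0.099 between groups of 5 and 0.14 for the interaction. The fit was tested on simulated data with independent noise and with shifts larger than those of the members. That test does not cover differences of their size.

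The members and lists were chosen with earlier results of these data known. Named genes were the members and relatives, from each partner list up to 4 genes of smallest p for ammonia, LPS and the shunt, and the genes correlated most with Lyn. Some of these are not reported here, and Csk is named as the regulator of the family. Alternatives changed the normalization, probe sets, filter, variance model, array weights and arrays used.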

Additional observations from a re-analysis of the deposited data

Results flagged for a closer look

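In 4 of 35 groups examined (7 members in 5 groups), 1 array stood apart from the others of its group by Dixon's criterion, which flags about 1 in 20 groups by chance. Lyn measured 6.8 on PCA array 2, where the nearest array of the group was at 7.1. Fyn measured 9.1 on PCA+NH3+LPS array 3, the array with choroid plexus markers, where the others were at 8.9. Blk measured 4.9 on PCA+LPS array 5, 1 of the arrays with neutrophil markers, where the others were at 4.7. Blk also measured 4.9 on PCA+NH3+LPS array 2, where the others were at 4.6. With values in steps of 0.1, the last 3 groups held only 2 distinct values each.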

How the results depend on the processing

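Of 3245 tested values of single genes under an alternative, 3182 kept their direction and side of the threshold, 6 newly passed (all Cd4 for LPS, lowest limma adjusted p 0.0157), 14 no longer passed (all Adgre1 for LPS, 0.0623 for the compared groups alone) and 43 reversed. Apart from these, the ammonia differences of Lyn and Fgr, which carry no test, were negative in all 75 values. Because this contrast chose Lyn in the same arrays, its sign was close to given, and nothing is read from this count. The ammonia difference of Lyn stayed between -0.46 and -0.35, and between -0.44 and -0.39 without single arrays. Its LPS difference ran from 0.16 (without the 4 arrays with choroid plexus markers) to 0.26.

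Counts over all genes moved from 3 for ammonia to 1 after shifting arrays to a common median, 1 with a replicate block, 0 without the choroid plexus arrays and 0 without PCA+LPS arrays 2 and 5. For LPS the count of 3 became 1 for genes of at least median mean, for the compared groups alone, and without either set of arrays. For the shunt the count of 1 became 0 with cyclic loess, all probe sets, array weights and without either set or Sham arrays 1 and 2. For PCA+LPS against PCA the count of 0 became 2 with array weights and 1 with the replicate block. Without single arrays the counts ran from 1 to 4 (ammonia), 1 to 4 (LPS), 0 to 1 (shunt) and 0 to 2 (PCA+LPS against PCA). Of 46 pairs of like number, 23 had r over 0.1 (range -0.47 to 0.57, median 0.098), against 44 of 184 pairs of unlike number (median -0.011), and the 6 pairs of number 5 lay between 0.15 and 0.30. Over 0.1 were thus 50% of like pairs and 23.9% of unlike pairs. The labels do not say what the numbers stand for, and the main fit left them out. The fit with a replicate block used them and gave 1 gene for ammonia in place of 3. Whether samples of like number belong together was not tested.

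Reversed values were these. For the shunt, Fyn was at -0.00137 (cyclic loess), -0.013 (common median), -0.033 (array weights) and -0.073 (without Sham arrays 1 and 2, where Matk was at 0.032). For the interaction, Blk was at -0.00699 (cyclic loess), -0.00936 (array weights), -0.00625 (replicate block) and -0.090 (without choroid plexus arrays). The common median gave interactions of 0.020 for Lyn, 0.075 for Src, 0.045 for Yes1 and 0.050 for Fgr. Without the choroid plexus arrays, interactions were -0.060 for Fyn, 0.073 for Src and 0.013 for Fgr. Without PCA+LPS arrays 2 and 5, an alternative chosen after seeing the data, Fgr was at -0.0083 for LPS, -0.067 for PCA+LPS against PCA and 0.12 for the interaction, and Ptprc at -0.045 for LPS. Without single arrays, ranges that crossed 0 were -0.0075 to 0.068 (Srms, ammonia), -0.070 to 0.030 (Lck, LPS), -0.048 to 0.028 (Fyn, shunt), -0.0050 to 0.14 (Lck, PCA against Sham), and, for the interaction, -0.020 to 0.085 (Fyn), -0.087 to 0.013 (Src), -0.19 to 0.013 (Fgr) and -0.060 to 0.065 (Blk). The cause was not tested. The filter on the mean gave no value for Fgr, Lck and Blk. Other probe sets of the members were not run, since each had 1. Cd4 and Ptprc had 2 probe sets each, and only the one of higher mean was described.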
